A study of Mus musculus with 8 samples.

Results

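The mitochondrial CpG cytosines are the cytosines of CpG dinucleotides that the deposited methylation calls place on the mitochondrial chromosome, each strand counted apart. Cytosines read at least 10 times in every library were used. They number 422 of the 429 mitochondrial cytosines listed in any library, among 1511888 cytosines of the whole genome listed in all 8 libraries. Of the 422, 204 lie on the plus strand and 218 on the minus strand. They belong to 218 CpGs, of which 204 were read on both strands.

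The libraries are reduced representation bisulfite sequencing, in which a fraction of the genome rich in CpGs is treated with bisulfite and sequenced. They were made from brain tissue labelled dDG DGC layer of male C57 BL/6 animals, with 4 libraries from cocaine self-administration and 4 from saline, each from its own mouse by the series' design. Summed coverage over all listed cytosines, in which a read counts once at each cytosine it covers, ran from 87964952 to 141775386 per library. The question put to the mitochondrial cytosines was how much signal remains on a chromosome used as a conversion control, and whether it differed between cocaine and saline mice.

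Mitochondrial DNA is a small circular chromosome present in many copies per cell, which encodes subunits of the respiratory chain together with the ribosomal and transfer RNAs that translate them. It is not packed on histones, and whether its CpGs are methylated at all is debated. Bisulfite converts unmethylated cytosines and leaves methylated ones, so any cytosine that escapes conversion is read as methylated. A level measured on this chromosome can hold methylation, failed conversion, read errors and other sources, which cannot be told apart here.

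Mitochondrial CpG cytosines were read as almost wholly unmethylated in every library, and the level did not differ detectably between cocaine and saline mice. The mean level over the 422 cytosines was 0.103%, 0.102%, 0.126% and 0.0641% in cocaine mice 1 to 4. In saline mice 1 to 4 it was 0.0402%, 0.107%, 0.113% and 0.155%. The lowest and the highest library were both saline, and the groups overlapped. Cocaine libraries averaged 0.0989% ± 0.0257 (SD, n = 4) and saline libraries 0.104% ± 0.0475 (SD, n = 4). Their difference of -0.00491 percentage points had p = 0.857 in a two-sided exact permutation test over 70 assignments, the same value after Benjamini-Hochberg adjustment over 22 chromosomes. None of these 22 chromosomes had groups that did not overlap in mean level (0.0% called).

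Pooling all reads of a library weights the deeply read cytosines and gave higher levels. The pooled level was 0.215%, 0.243%, 0.273% and 0.220% in cocaine mice 1 to 4 and 0.243%, 0.330%, 0.288% and 0.332% in saline mice 1 to 4. Saline libraries lay mostly above cocaine libraries, with saline 1 inside the cocaine range. Means were 0.238% ± 0.0266 and 0.298% ± 0.0422 (SD, n = 4 each), and the difference of -0.0605 points had p = 0.0571 by the exact permutation test. Counting error is small beside this spread: the 95% Wilson interval of cocaine 1 ran from 0.205% to 0.226%. Such intervals cover counting error only, since reads without molecular identifiers may be copies of the same molecule. The weights of the cytosines differed between the groups. In cocaine libraries the 8 most deeply read cytosines held 0.480% of reads on average, and the whole chromosome 0.882%. In saline libraries they held 0.350%, and the whole chromosome 0.541%. The pooled difference mixes levels with these weights, and the part of each was not tested.

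The mitochondrial level was far below the level of the nuclear chromosomes in the same libraries. Nuclear cytosines averaged 37.3% ± 0.697 in cocaine and 38.0% ± 0.168 in saline mice (SD, n = 4 each). The nuclear level exceeded the mitochondrial one by 37.6 points on average, in 8 of 8 libraries (exact sign-change test, p = 0.00781, the smallest 8 libraries allow). This order was foreseen for a chromosome used as a conversion control, so the p-value carries no support. Using the mitochondrial level as the rate of failed conversion in each library left the nuclear group difference at -0.731 points against -0.733 without the correction (exact permutation p = 0.114 for both). The mitochondrial level moved little with the nuclear one over the 8 libraries. Pearson's r was -0.141 (permutation p = 0.773) and Spearman's rho 0.119 (permutation p = 0.793), both with an adjusted p of 0.793 over these 2 relations. Without saline 1 and saline 4, the libraries farthest from the median mitochondrial level, r was -0.595.

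Shares of reads were taken over the cytosines listed in all 8 libraries. The share that fell on mitochondrial cytosines was higher in every cocaine library than in every saline library. It was 0.981%, 0.879%, 0.878% and 0.790% in cocaine mice 1 to 4. In saline mice 1 to 4 it was 0.586%, 0.413%, 0.515% and 0.650%. The lowest cocaine library lay above the highest saline library. Means were 0.882% ± 0.0780 and 0.541% ± 0.101 (SD, n = 4 each), a ratio of 1.63, with an exact permutation p of 0.0286, the smallest 4 against 4 can give. Adjusted over the 22 chromosomes p was 0.210, so the difference did not pass the correction. Chromosomes M, 4 and 5 had groups that did not overlap in share of reads (13.6% called). The cocaine to saline ratio of the other 21 chromosomes lay between 0.892 on chromosome Y and 1.07 on chromosome 2, all nearer to 1 than that of the mitochondrial chromosome.

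**Figure D1:**
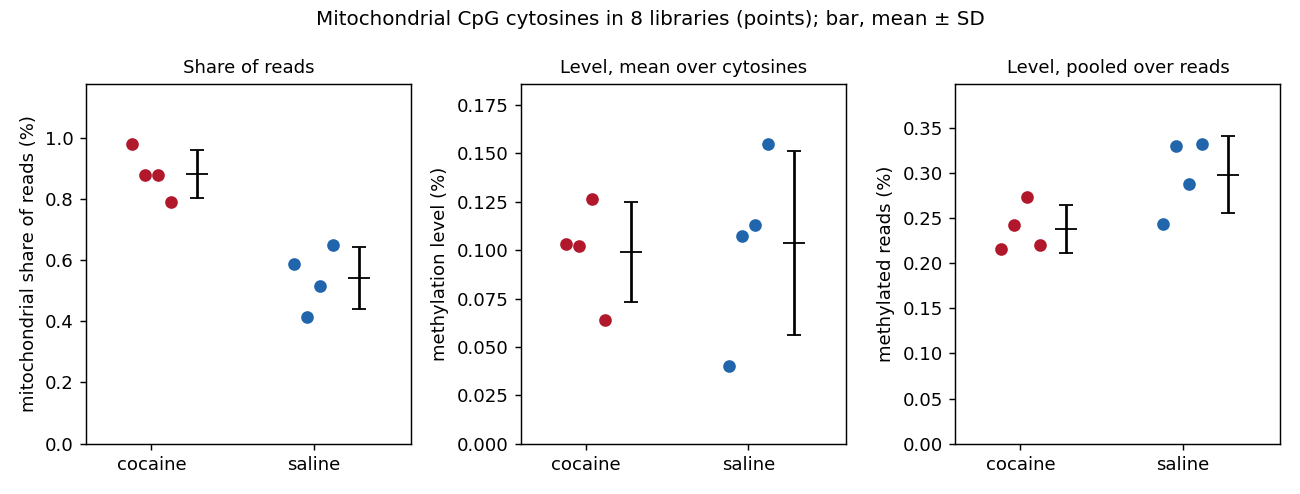
Share of reads on mitochondrial CpG cytosines (left), mean methylation level over the 422 cytosines (middle) and level pooled over reads (right), in percent, for 4 cocaine and 4 saline libraries. Each point is a library and the bar beside each group is the mean ± SD. The shares of reads do not overlap (0.790% to 0.981% against 0.413% to 0.650%), while both levels overlap between the groups.

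Coverage showed the same order. The median coverage of a mitochondrial cytosine was 466.5, 501, 352 and 440.5 reads in cocaine mice 1 to 4 and 250, 156, 238.5 and 291.5 reads in saline mice 1 to 4. Median nuclear coverage went the other way for most libraries, at 44 to 60 reads in cocaine and 53 to 77 reads in saline mice. The ratio of mitochondrial to nuclear median coverage was 9.02 ± 1.07 in cocaine and 3.75 ± 0.899 in saline libraries (SD, n = 4 each; exact permutation p = 0.0286). Coverage was then scaled to the library's reads over the cytosines listed in all 8 libraries. So scaled, it was higher in all 4 cocaine than in all 4 saline libraries at 365 of 422 mitochondrial cytosines (86.5%), and lower at 0. Among 1510385 nuclear cytosines the share with cocaine above all saline was 1.15%. The median ratio over mitochondrial cytosines was 2.29, with a range of 0.993 to 3.19, against a nuclear median of 0.987. Neighbouring cytosines are read from the same fragments, so these counts are not independent.

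The ratio differed between classes of read depth, which were set after the coverage was seen and are given without a test. The 8 deepest cytosines, each with at least 100000 reads over all libraries, lie within bases 6114 to 6390 in COX1, which encodes a subunit of cytochrome c oxidase. They held 59.2% of the mitochondrial reads. Their share of reads was 0.480% ± 0.0717 in cocaine and 0.350% ± 0.0658 in saline libraries (SD, n = 4 each), a ratio of 1.37, and at 1 of the 8 cocaine lay above all saline. The 355 cytosines with under 10000 reads had 0.187% ± 0.0177 and 0.0805% ± 0.0181, a ratio of 2.32, and 322 of them had cocaine above all saline. The 59 cytosines in between had a ratio of 1.95 in share of reads. Their median ratio per cytosine was 2.25, close to the 2.30 of the 355. The 8 deepest lie together, so read depth and place cannot be told apart for them. The part of the read depth of a cytosine in the ratio was not tested. In dissected tissue, more mitochondrial genomes per cell and another mix of cells cannot be told apart. These are not the only possible causes in the tissue or the libraries, and none was tested.

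**Figure D2:**
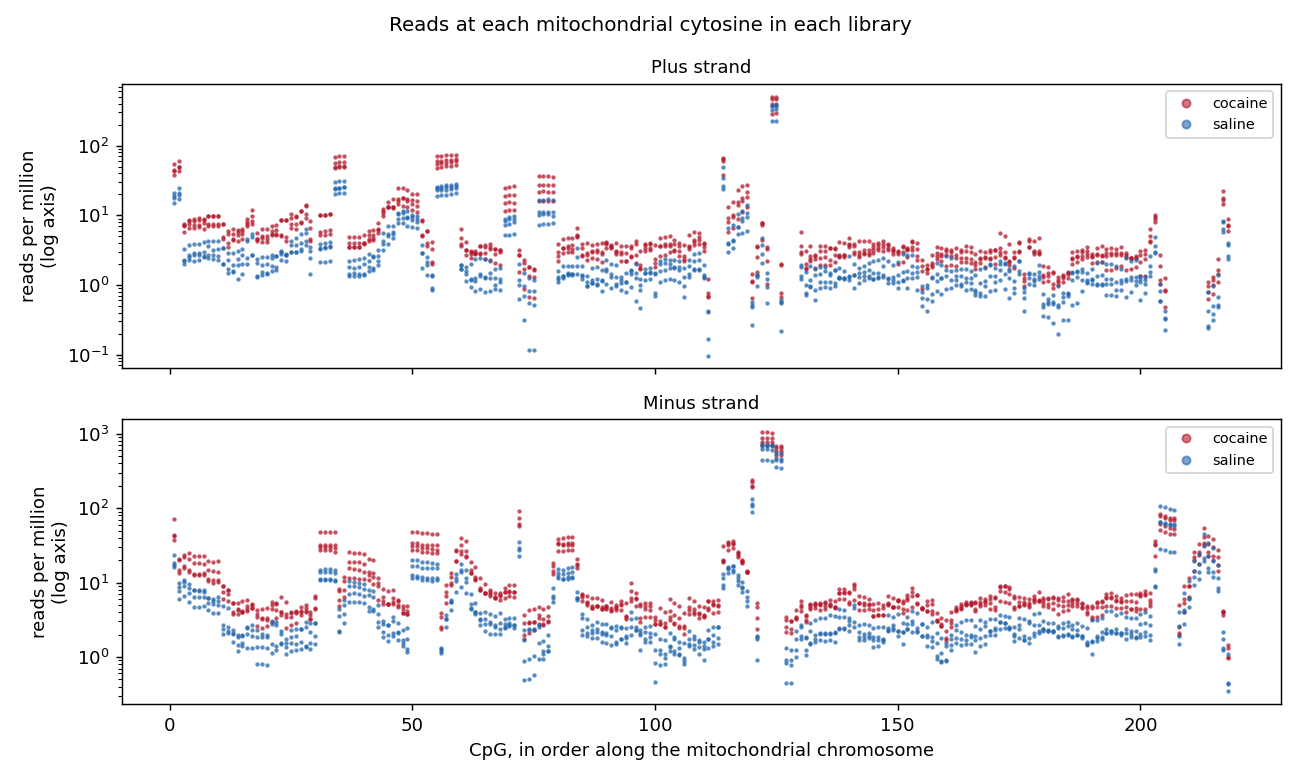
Reads at each mitochondrial cytosine (log axis) against the order of its CpG along the chromosome, plus strand above and minus strand below. Reads are scaled to the library's reads over the cytosines listed in all 8 libraries, with 1 point per library. Cocaine libraries lie above saline libraries at 365 of 422 cytosines, and coverage rises and falls in steps with a plateau over COX1. At the 8 deepest cytosines there the groups are closer (ratio 1.37) than at cytosines with under 10000 reads (2.32). The lowest ratio of a single cytosine, 0.993, lies outside these 8.

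Signal was concentrated in few cytosines. With the 8 libraries pooled, the median cytosine had 0.0398% methylated reads and the highest 2.27%. No methylated read was seen in any library at 158 of 422 cytosines. Singly these 158 had 450 to 10025 reads over all libraries, and a count of 0 allows a level of up to 0.152% at their median depth of 1974 reads. A further 3 of 422 cytosines reached 1%. Nuclear cytosines with at least 1000 reads differed: 11.7% of 62854 had no methylated read and 42.8% lay under 1%, against 36.1% and 99.3% of the 402 mitochondrial cytosines of that depth. Most mitochondrial cytosines with any signal had it in few libraries, 129 in 1 library and 67 in 2. Only 16 had methylated reads in all 8 libraries, and these 16 held 88.0% of the 14676 methylated reads. The 3 cytosines with most methylated reads held 65.4% of them but 23.1% of the reads.

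Detection in all 8 libraries followed depth as well as level. The 16 cytosines lie in mt-Rnr1 and mt-Rnr2 (the small and large ribosomal RNA), ND1 (a subunit of complex I), COX1 and the control region, the stretch between genes that holds the promoters and an origin of replication. Of them, 12 had pooled levels of 0.249% to 2.27%, and the other 4, all in COX1, had 0.0141% to 0.0348% on 299535 to 585581 reads. Levels per cytosine correlated between libraries only where reads were many. Over the 67 cytosines with at least 10000 reads, Pearson's r across cytosines was 0.558 to 0.904 for the 28 pairs of libraries, and over the other 355 the median r was 0.000834. Cytosines share fragments and libraries here, and are not independent replicates.

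High levels often stood where the number of reads stepped up along a strand, with a drop at the next cytosine. A step was taken as a rise of at least 3-fold over the upstream neighbour on the same strand within 300 bp, with a next cytosine within 100 bp. This rule was chosen after values were seen, so no test is given. It found 10 steps, whose first cytosines had a median pooled level of 0.442% and whose next cytosines had 0.0283%. In 9 of 10 the first lay above the next, the exception being minus-strand base 16012 in the control region, at 0.106% against 0.325%. Averaged over the 10 steps, each of the 8 libraries had a higher level at the first (0.494% to 0.911%) than at the next cytosine (0.00214% to 0.143%). The 10 first cytosines held 58.0% of all methylated reads.

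The steps with most methylated reads are in COX1. Plus-strand base 6275 of the mitochondrial chromosome (mm10) read 0.987%, 0.953%, 1.18% and 1.42% in cocaine mice 1 to 4 and 0.945%, 1.08%, 1.13% and 1.02% in saline mice 1 to 4. Its libraries all lay near 1%, with both groups mixed. Pooled, it had 1.07% of 295069 reads, against 0.0187% at the next plus-strand cytosine, base 6311, a ratio of 57.0. The minus strand of the same stretch gave the same picture from the other end. Minus-strand base 6390 read 0.717%, 0.854%, 0.850% and 0.821% in cocaine and 0.841%, 1.02%, 0.855% and 0.918% in saline mice 1 to 4. Pooled it had 0.850%, against 0.0141% at base 6312, a ratio of 60.2. Bases 6311 and 6312 are the strands of 1 CpG, and at both steps the lowest library at the first cytosine lay above the highest at the next, which was 0.0688% at base 6311 and 0.0480% at base 6312.

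In mt-Rnr2, plus-strand base 1871 read 1.59%, 0.990%, 1.17% and 1.00% in cocaine and 1.59%, 0.869%, 1.27% and 1.46% in saline mice 1 to 4. Both groups covered the same range, and the pooled 1.22% was 25.9 times the 0.0470% of base 1912. The highest pooled level of the chromosome was at minus-strand base 15744 of the control region. It read 0.594%, 1.88%, 1.15% and 0.848% in cocaine and 1.80%, 4.08%, 1.61% and 4.02% in saline mice 1 to 4. Saline 2 and saline 4 were the highest and the groups overlapped between 1.61% and 1.88%. Here the level fell from 2.27% to 0.411% at the next cytosine, base 15739, a ratio of 5.53. It then declined further to 0.249% at base 15717 and 0.145% at base 15701.

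The same rule on nuclear chromosomes found 4041 steps, with median levels of 2.74% at the first and 2.67% at the next cytosine and the first above the next in 62.0%. Their means ran the other way, 28.1% at the first and 28.9% at the next cytosine, with the first above the next in 0 of 8 libraries. Nuclear steps whose cytosine after the next lay under 1% numbered 1651. Their medians were 0.725% at the first and 0.168% at the next cytosine, with the first above in 76.7%. Their means were 1.99% and 1.73%, with the first above in 8 of 8 libraries. With a rise of at least 5-fold, the 610 nuclear steps had means of 31.9% and 30.5%, the first above in 8 of 8 libraries. The medians of these 610 ran the other way, 6.32% and 7.27%. The part of the position at a step in these levels was not tested.

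**Figure D3:**
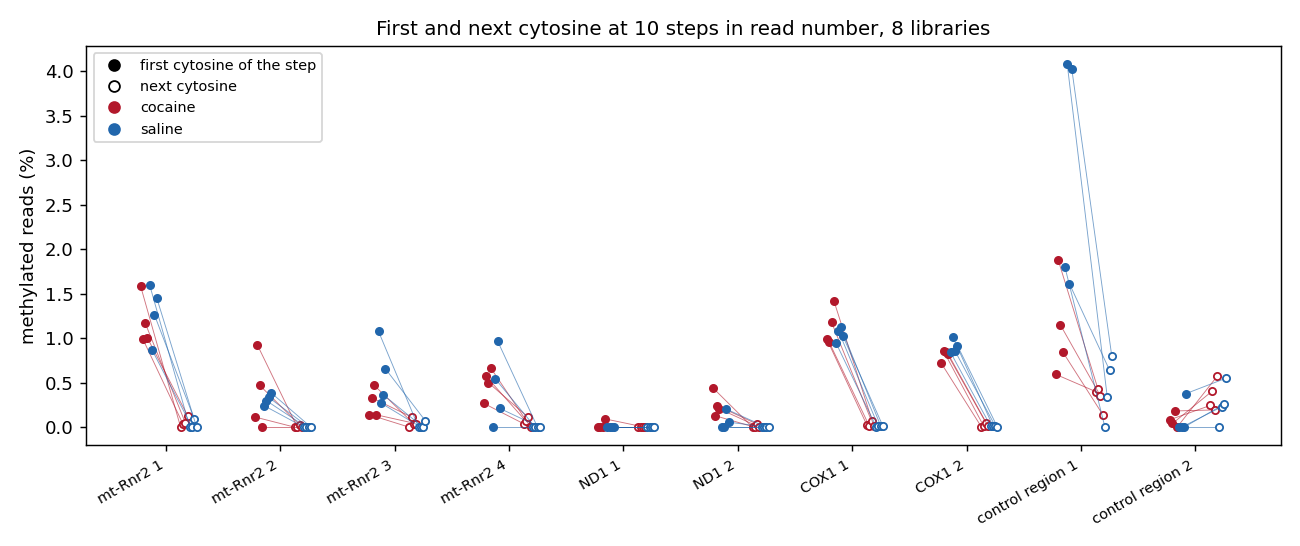
Methylated reads in percent at the first cytosine of each of 10 steps in read number (filled points) and at the next cytosine (open points), with lines joining the values of a library. Steps are named by gene and order along the chromosome, and colours mark 4 cocaine and 4 saline libraries. COX1 steps fall from about 1% to under 0.1% in every library, and the second control region step is the exception.

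On average over cytosines, no difference between the strands passed the test. Plus-strand cytosines exceeded minus-strand ones by 0.0122 points on average, in 6 of 8 libraries (exact sign-change test, p = 0.461). Pooled over reads the difference was 0.0449 points and passed it (exact sign-change p = 0.0313). Nuclear cytosines, as a mean over cytosines, had a plus-strand excess of 0.0412 points, in 8 of 8 libraries (exact sign-change p = 0.00781). The mitochondrial strand difference, as a mean over cytosines, was 0.0142 ± 0.00971 points in cocaine and 0.0103 ± 0.0681 points in saline libraries (SD, n = 4 each). These differed by 0.00391 points (exact permutation p = 0.914). Within the 204 CpGs read on both strands, 78 had methylated reads on both, 36 on the plus strand only, 60 on the minus strand only and 30 on neither. The pooled levels of the strands had Pearson's r of 0.462 and Spearman's rho of 0.151 across these CpGs, against an r of 0.955 over 254539 nuclear CpGs. Nuclear CpGs span the whole range of levels and mitochondrial ones a narrow one near 0.

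As a mean over cytosines, the 13 mitochondrial genes with at least 3 of them all stayed under 0.2% in each group, and their groups overlapped. RefSeq annotation of assembly GRCm38.p6 placed common cytosines in 8 of 13 protein-coding genes, 2 of 2 ribosomal RNA genes and 8 of 22 transfer RNA genes. No common cytosine lay between bases 6432 and 9506, so COX2, ATP8, ATP6 and COX3 were without one, as was ND4L, while ND3 had 1. Among the 13, COX1 (42 cytosines) had 0.177% ± 0.0664 in cocaine and 0.109% ± 0.0512 in saline mice (SD, n = 4 each). Its groups overlapped, as did those of mt-Rnr1 (44 cytosines) at 0.146% ± 0.0638 and 0.0934% ± 0.0805. Pooled over reads, which is the level the gene test used, the order turned in both: COX1 had 0.306% ± 0.0374 in cocaine and 0.317% ± 0.0246 in saline mice, and mt-Rnr1 0.169% ± 0.0642 and 0.178% ± 0.0917. ND1 was the only other of the 13 genes whose direction differed between these scalings. The large ribosomal RNA mt-Rnr2 (75 cytosines) had 0.105% ± 0.0418 and 0.105% ± 0.0396.

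Genes for complex I subunits were as low. ND1 had 0.0878% in cocaine and 0.0946% in saline mice, ND2 0.110% and 0.0498%, and ND4 0.0271% and 0.103%. ND5 had 0.0585% and 0.0920%, and ND6, the only protein gene encoded on the light strand, 0.0474% and 0.0594%. CYTB, the cytochrome b of complex III, had 0.0697% and 0.0962%. Ordered by their mean over all 8 libraries, the 13 genes ran from COX1 at 0.143% to TrnC, the cysteine transfer RNA, at 0.0184%. Each neighbouring pair in that order differed by less than the SD of either gene over the 8 libraries. The 24 cytosines of the control region, bases 15465 to 16283, had 0.179% ± 0.0885 in cocaine and 0.290% ± 0.242 in saline mice. Saline 2 stood highest at 0.628%, mostly from base 16283, where 3 of its 33 reads were methylated (9.09%). Without saline 2 the saline mean was 0.177% ± 0.107, and without base 16283 the groups had 0.187% and 0.204%. Of 28 cytosines in transfer RNA genes, 14 had no methylated read in any library.

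**Figure D4:**
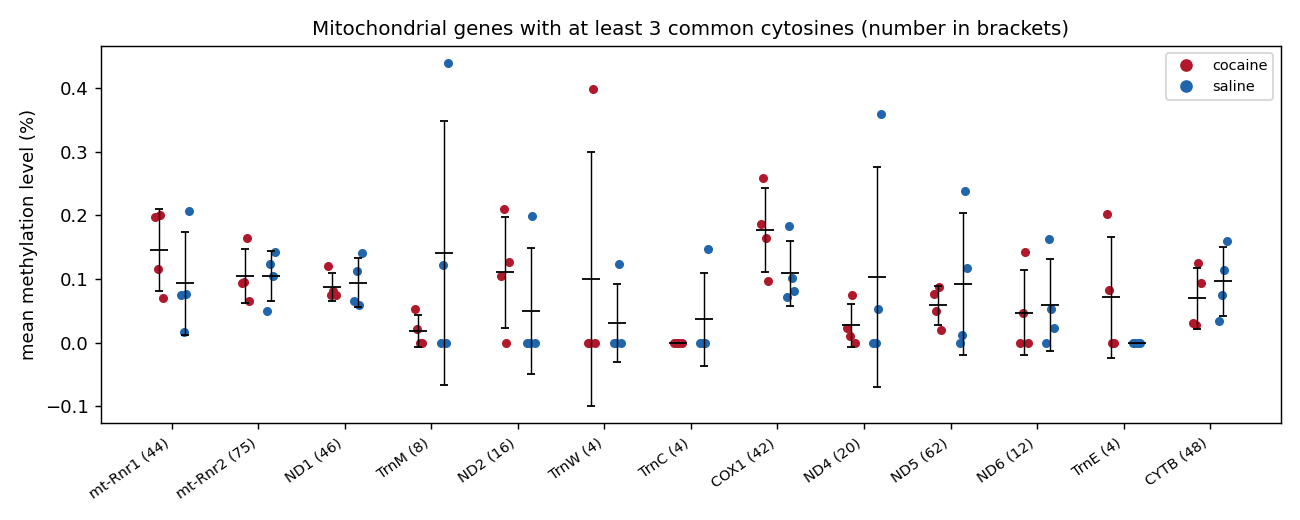
Mean methylation level in percent over the common cytosines of each mitochondrial gene with at least 3 of them, in map order, with the number of cytosines in brackets. Points are libraries, 4 cocaine and 4 saline, and bars are the mean ± SD. The groups overlap in every gene shown, and values above 0 in the short transfer RNA genes come from at most 2 libraries per group.

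No mitochondrial cytosine, run of cytosines or gene passed the test of cocaine against saline. A quasi-binomial model of methylated and unmethylated reads was fitted to every cytosine of the genome with a methylated and an unmethylated read, 264 of the 422 mitochondrial ones among 1224649. No mitochondrial cytosine had an adjusted p under 0.05 (0 of 264, with 0.0% called over the genome), and the smallest adjusted p was 0.684. At an unadjusted p under 0.05 there were 12 (4.55%), against 5.7% called over the genome, a share near the background. Of these, 8 were lower in cocaine mice (3.41% called over the genome in that direction) and 4 were higher (2.29% called). Of the 12, 11 had methylated reads in at most 3 libraries. With dispersions moderated across cytosines, and with limma on logit levels, the adjusted count was also 0, and limma gave 14 an unadjusted p under 0.05. The share over the genome was not counted for unadjusted limma p values, here or for the runs and genes below. Those counts therefore cannot be set against a background.

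By the quasi-binomial F test across all cytosines, with no exact test run on them singly, the smallest unadjusted p values were at ND1 base 3402 (minus, p = 0.0295), mt-Rnr1 base 230 (minus, p = 0.0448) and ND2 base 4440 (minus, p = 0.0471) among those higher in cocaine. By the same F test, with no exact test run, those lower in cocaine were COX1 base 5964 (plus, p = 0.0290), control region base 15744 (minus, p = 0.0290) and ND5 base 12525 (plus, p = 0.0329). The quasi-binomial adjusted p was 0.684 for each of the 6. High levels at thinly read cytosines came from few reads. ND1 base 3333 on the plus strand read 0%, 0.346%, 0.469% and 1.41% in cocaine and 0%, 3.33%, 0% and 3.81% in saline mice 1 to 4, and the groups overlapped.

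Runs of at least 3 CpGs with gaps of at most 100 bp numbered 23 on the mitochondrial chromosome among 125036. Run levels here are pooled over the reads of a library, as the test used them, so they are not on the scale of the gene means above. None passed the moderated quasi-binomial test (0 of 23, 0.0% called over the genome) and none had an unadjusted p under 0.05 in it, against 6.05% called over the genome. On logit levels limma gave 2 of 23 an unadjusted p under 0.05, the runs at bases 898 to 985 and 11412 to 11461. After adjustment limma called 0 of these 23 and 2 of 125036 runs over the genome. The run at bases 15700 to 16012 of the control region had the highest level and the smallest p, with 0.297% ± 0.0942 in cocaine and 0.626% ± 0.345 in saline mice (SD, n = 4 each; moderated quasi-binomial adjusted p = 0.862). The deepest, bases 6113 to 6432 in COX1 with 3326752 reads, had 0.321% ± 0.0429 and 0.326% ± 0.0234. The run at bases 898 to 985 had 0.206% ± 0.124 and 0.0386% ± 0.0772 (moderated quasi-binomial adjusted p = 0.872). Of 13 genes among 25224, 0 passed the moderated quasi-binomial test (0.0% called over the genome) and 0 had an unadjusted p under 0.05 in it, against 5.78% called over the genome. In limma on logit levels 1 gene, TrnC with 1 methylated read in all, had an unadjusted p under 0.05. After adjustment limma called 0 of the 13 and 1 of 25224 genes over the genome. The smallest gene value was that of TrnM, the methionine transfer RNA, at an adjusted p of 0.916 from the same moderated quasi-binomial fit.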

How the data were processed

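The deposited tables list 1 CpG cytosine per line and strand. Per the submitters' processing notes, bcl2fastq, Bismark 22.1 and mm10 were used. How reads were trimmed or duplicates handled is not given in the sources used here. The deposited level is a fraction from 0 to 1, although the file headers name it a percent, and the deposited coverage is a count of at least 10 reads. Level times coverage gave whole methylated reads within 5e-07 times the coverage. Libraries were joined by chromosome, base and strand, 1081 cytosines on unplaced contigs were left out, and levels are means over cytosines unless pooled. Libraries were compared by two-sided exact permutation, strands by sign changes. Quasi-binomial models used a dispersion per cytosine of at least 1, or dispersions moderated with limma 3.58.1 (R 4.3.3) for runs and genes, with Benjamini-Hochberg adjustment over all features tested. On simulated reads the test of single cytosines had little power without moderation. Power at levels as low as those of the mitochondrial cytosines, runs and genes was not tested, with or without moderation. Genes came from RefSeq GRCm38.p6, without strand. Named items were genes with at least 3 cytosines, the highest cytosines and runs, and the smallest p in each direction. Members, lists and rules were chosen with earlier results of these data known. Sequences were not used here.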

Additional observations from a re-analysis of the deposited data

Results flagged for a closer look

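Of 56 checks of a library standing apart within its group, 7 were positive. Chance gives about 1 in 20 for continuous values, a rate that does not hold here: in 5 of the 7 the other 3 libraries of the group were all at 0, and any single methylated read then sets its library apart. Control region base 16283 on the minus strand read 9.09% in saline 2, from 3 of 33 reads, and 0% in the other saline libraries. ND1 read 0.121% in cocaine 1 against 0.0745% to 0.0808% in the other cocaine libraries. ND4 read 0.359% in saline 4 against 0% to 0.0523% in the other saline libraries. A single library held all the signal of its group in ND2 (0.199% in saline 3), TrnC (0.147% in saline 4) and TrnW (0.399% in cocaine 3 and 0.124% in saline 3).

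Among the 7 cytosines not read in all libraries, with 11 to 36 reads, 1 value was above 0. Plus-strand base 15950 in cocaine 2 read 16.7%, from 4 of 24 reads, and 0% in the 5 other libraries that list it.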

How the results depend on the processing

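The level difference turned to 0.00470 points with every cytosine listed in each library and to 0.00670 without cocaine 4 and 0.0122 without saline 4, and leaving out single libraries gave -0.0261 to 0.0122, all with exact permutation p of at least 0.314. The strand difference was 0.0449 points when pooled over reads (exact sign-change p = 0.0313), and 0.00379 to 0.0226 with single libraries left out. The corrected nuclear difference was -1.02 points without cocaine 4 (exact permutation p = 0.0286), in a range of -1.02 to -0.452. The share of reads kept p = 0.0286 without any 1 library (0.298 to 0.377 points, exact permutation). With the replicate number as a block it was 0.341 points with an exact p of 0.125, the smallest that 4 pairs allow. The labels do not state whether the numbers pair the libraries. Deviations of same-numbered libraries correlated at -0.00814 to 0.0375, which cannot settle whether they were paired. The block changed no other mitochondrial call. Over the genome, limma called 2 runs and 1 gene after adjustment without the block, and 0 of each with it. Counts of called mitochondrial cytosines, runs and genes were 0 under every alternative with an adjusted p. At an unadjusted p under 0.05 the quasi-binomial fit gave 12 cytosines (5.7% called over the genome). Limma, for which no background was counted, gave 14 cytosines, 2 runs and 1 gene. Without saline 2, chosen after seeing the data, the control region difference turned from -0.111 to 0.00223 points. A median over cytosines is 0% in every library, and a filter on pooled level of 5% to 95% left no mitochondrial feature. Separating cytosines by depth or leaving out those at steps, chosen after seeing the data, changed no call. The cause of these changes was not tested.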
